A study of Mus musculus with 2 samples.

Results

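The 8 genes Tbr1, Eomes, Neurod2, Neurod6, Bcl11b, Sp8, Mef2c and Nr2f1 encode transcription factors best known from the telencephalon, the front of the brain that holds the cerebral cortex, hippocampus, striatum and olfactory bulb. They were taken by gene name from 2 two-colour arrays of whole brain, where they are 8 of 27962 gene names and are measured by 10 of 41174 probes. TDAG51, the protein encoded by Phlda1, is missing from the TDAG51-/- dams (labelled TDAG51 KO). These were compared with TDAG51+/+ dams (TDAG51 WT) on one array, called the first here, and on the other with TDAG51-/-Tg2 dams (TDAG51 KO Tg), which lack the same gene and carry 1 transgene line. In that line TDAG51 is driven by the BAI1-AP4 promoter, described as active mainly in cortex and hippocampus. All brains came from female C57BL/6J mice, 8 weeks old, on postpartum day 0. The paper states that the transgenic lines were backcrossed to C57BL/6J and crossed with TDAG51-/- mice, whose own backcrossing it does not describe. The TDAG51-/- RNA was in the Cy3 channel of both arrays and the control RNA in Cy5, with no dye swap, so dye and genotype cannot be told apart. Each comparison has 1 array and the number of dams behind a sample is not given, so no difference below has a replicate check, and no p-value is given.

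Transcription factors bind short DNA motifs and set which genes a cell reads. In the developing forebrain they act in sequence: Pax6-positive stem cells of the pallium, the source of cortex and hippocampus, give rise to progenitors with Eomes, then to excitatory neurons with Neurod2, Neurod6 and Tbr1. Bcl11b is used by neurons that project from deep cortex to the spinal cord and by the projection neurons of the striatum. Sp8 belongs to interneurons of the olfactory bulb, Mef2c to maturing neurons in which it limits the number of excitatory synapses, and Nr2f1 to the gradient that divides cortex into areas. Several of these genes persist in the adult brain, and some are also used outside the telencephalon. Eomes marks unipolar brush cells of the cerebellum, and Neurod2 is active in cerebellar granule cells.

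Which stretch of a gene a probe reads matters here, because 3 members have more than 1 probe and these did not always give the same value. The first 30 bases of the 60-base probes of these 3 genes, and of Sp8 and Tbr1, are given 5′ to 3′ as deposited, in lower case because no part is singled out.
Bcl11b, probe of NM_021399: acatgtgagtactgcggcaaggtcttcaag
Bcl11b, probe listed as 9130430L19Rik: tttattaccttttctattacgtatcgtatg
Mef2c, probe of NM_025282: atatcattggcgtatggcactcattcaaaa
Mef2c, probe of AK044643: aagccccgaaatagcatagaagttattaac
Neurod2, brighter probe: ttcaccctaacacgaatctccgcgtttttt
Neurod2, dimmer probe: aacttctcgctcaagcaggactcgtccccc
Sp8, probe of NM_177082: ccgggcctagttttgctcgaatatgaattt
Tbr1, probe of NM_009322: gatgaattgtgtgagttgtatattttactg
The scanner output places the Bcl11b probe at chr12:105437087-105437146 and the one listed as 9130430L19Rik at chr12:105432172-105432231, both on the minus strand of mm7 and 4915 bases apart. The Mef2c probes lie at chr13:80738124-80738183 and chr13:80652493-80652552, which is 85631 bases apart. The Neurod2 probes, at chr11:98435629-98435676 and chr11:98436392-98436451, are 763 bases apart. Sp8 was read at chr12:116637615-116637674 and Tbr1 at chr2:61744166-61744225. Exon, intron or UTR was not assigned, since no annotation of mm7 was used here. The share of G and C differed within a gene, with 53.3% in the Bcl11b probe and 35% in the 9130430L19Rik probe, against a median of 40.0% over all probes.

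All 10 probes were marked by the scanner as well above background in both channels of both arrays, and each had 1 spot per array. Sp8, Mef2c and Tbr1 were at least 2-fold lower in the TDAG51-/- brain than in both controls, Bcl11b by its named probe was higher than in both, and Eomes passed 2-fold only against TDAG51-/-Tg2. Ratios are log2 of TDAG51-/- over control after normalization within the array, so that -1 is 2-fold lower. Against TDAG51+/+, 3 of the 10 probes were at least 2-fold lower and 1 was at least 2-fold higher. Of all 34571 probes above background on that array, 4.42% were that much lower and 4.90% that much higher. Against TDAG51-/-Tg2, 3 probes were lower and 2 higher, where 3.86% and 4.72% of 33802 probes were. Counting a gene by its brightest probe, 3 of the 8 members were lower in both comparisons and 1 was higher in both, against 1.57% and 2.77% of 22277 genes. The 3 became 2 without Mef2c, both when saturated probes were left out and when a gene was taken as the median of its probes, where Mef2c had -0.99 against TDAG51+/+. The 22277 genes were formed by updated probe names, which count the 9130430L19Rik probe as Bcl11b. By those names, 4 of the 8 members were lower in both comparisons and 0 were higher. The members, and the gene lists used below, were chosen with earlier results of these data known. The shares over all probes or genes therefore give a scale and do not test an excess. The TDAG51-/- genotype is common to both comparisons, so the second is not an independent repeat of the first. The median over the 8 members was -0.22 against TDAG51+/+ and -0.40 against TDAG51-/-Tg2, beside 0.01 and 0.02 over all genes. The members did not move one way, and their median depended on the processing, from -0.87 and -1.08 with a further probe counted as Bcl11b to 0.049 against TDAG51+/+ without saturated probes.

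**Figure D1:**
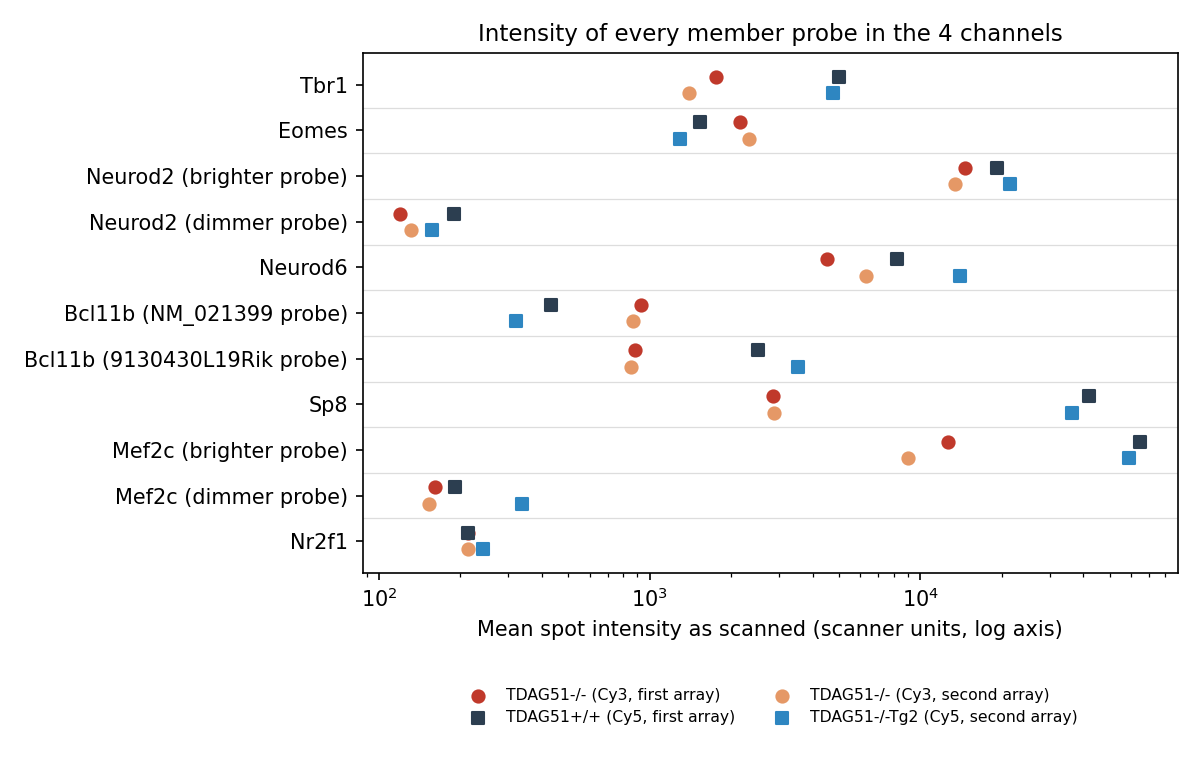
Mean intensity of each member probe as scanned (scanner units, log axis) in the 4 channels, 1 point per channel: circles are the TDAG51-/- samples in Cy3, squares the controls in Cy5, with the first array above the second in each row. The widest gap is that of Sp8, at 2856 and 2878 in TDAG51-/- against 41833 in TDAG51+/+ and 36405 in TDAG51-/-Tg2, and the 2 rows of Bcl11b run in opposite directions.

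Sp8, a zinc finger factor of the Sp family needed for olfactory bulb interneurons, had the largest difference among the members. Its intensity was 2856 in TDAG51-/- against 41833 in TDAG51+/+ on the first array, and 2878 against 36405 in TDAG51-/-Tg2 on the second. The TDAG51-/- channel was thus nearly the same on both arrays, and both controls were far above it. Whether the same TDAG51-/- RNA was put on both arrays is not stated, so close TDAG51-/- values cannot be told apart from technical repetition. The log2 ratio was -3.38 against TDAG51+/+, 10.4-fold lower, with a scanner error of 0.38 that covers the spot and not the animals. It was -3.17 against TDAG51-/-Tg2, 8.99-fold lower, with an error of 0.36. From the lowest ratio up, Sp8 was number 19 of 34571 probes against TDAG51+/+ and number 30 of 33802 against TDAG51-/-Tg2.

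The olfactory bulb markers moved with Sp8 in part. Of 6 such genes, 3 were at least 2-fold lower in both comparisons and 1 was higher, where 1.57% and 2.77% of all genes were. S100a5, a calcium-binding protein of olfactory sensory axons, was 20.3-fold and 15.1-fold lower, and Doc2g was 5.32-fold and 3.06-fold lower, against TDAG51+/+ and TDAG51-/-Tg2. The exception was Th, the rate-limiting enzyme of dopamine synthesis, which is not confined to the bulb and was 2.01-fold and 4.73-fold higher. The summed normalized intensity of the 6 genes was 8905 and 9154 in the 2 TDAG51-/- channels, 34734 in TDAG51+/+ and 22643 in TDAG51-/-Tg2. The part of bulb tissue in the Sp8 value was not tested. In whole-brain RNA, fewer cells of a type and less RNA per cell cannot be told apart.

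Mef2c, a MADS-box factor that acts downstream of neuronal activity, was lower by the probe of NM_025282. That probe read 12619 in TDAG51-/- and 64966 in TDAG51+/+, where the control spot was saturated, and 9033 against 58882 in TDAG51-/-Tg2. The log2 ratio was -1.73 (scanner error 0.26), at least 3.33-fold lower, against TDAG51+/+, and -2.09 (error 0.28), 4.27-fold lower, against TDAG51-/-Tg2. The TDAG51-/- channel itself was 0.51 lower on the log2 scale on the second array than on the first. Over 29876 probes, that Cy3 channel varied between the arrays with a robust SD of 0.144, so the 2 Mef2c values lay further apart than those of most probes. A difference between spots and one between RNA samples cannot be told apart here.

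The other Mef2c probe, of AK044643, was dim and moved less. It read 161 against 191 on the first array and 153 against 339 on the second. Its log2 ratios were -0.24 and -0.91, within 2-fold in both comparisons, with scanner errors of 0.21 and 0.24. Both Mef2c probes were thus lower in TDAG51-/-, and they differed in size by more than the scanner errors. Which Mef2c transcripts each one reads was not determined.

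Tbr1, a T-box factor of deep-layer cortical neurons that project to the thalamus, was also lower. It read 1756 in TDAG51-/- against 5018 in TDAG51+/+, and 1397 against 4739 in TDAG51-/-Tg2. The log2 ratio was -1.25 (scanner error 0.24), 2.37-fold lower, and -1.48 (error 0.25), 2.79-fold lower. Both control values lay above both TDAG51-/- values. The TDAG51-/- channel was 0.33 lower on the log2 scale on the second array than on the first. Tbr1 was number 852 from the lowest of 34571 probes on the first array and number 429 of 33802 on the second.

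Bcl11b, a zinc finger factor of deep-layer cortical and striatal projection neurons, gave opposite directions by its 2 probes. The probe named Bcl11b read 927 in TDAG51-/- against 432 in TDAG51+/+, and 868 against 320 in TDAG51-/-Tg2. Its log2 ratio was 1.23 (scanner error 0.24), 2.35-fold higher, and 1.63 (error 0.26), 3.09-fold higher. The probe that the files list as 9130430L19Rik, an older name that the RefSeq table of GRCm38.p6 gives as a synonym of Bcl11b, is outside the rule on gene names and so not among the 10. It read 884 against 2518 on the first array and 855 against 3532 on the second. Its log2 ratio was -1.28 (error 0.24), 2.43-fold lower, and -1.78 (error 0.27), 3.44-fold lower.

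In each probe the TDAG51-/- value was nearly equal on the 2 arrays, and neither control crossed it. The direction given for Bcl11b therefore rests on the probe taken. With 9130430L19Rik counted as Bcl11b and the brightest probe taken for each gene, 4 of the 8 members were lower in both comparisons and 0 were higher. Over all genes the shares were 1.57% and 2.77%. Bcl11a, the closest relative of Bcl11b, is used by cortical and striatal neurons as well. It read 4399 against 13894 and 4457 against 17040, which is 2.37-fold and 2.79-fold lower. Its 3 detected probes ran the same way, from -1.24 to -0.88 against TDAG51+/+ and from -1.48 to -1.12 against TDAG51-/-Tg2, with a median of -0.99 in the first that misses 2-fold.

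**Figure D2:**
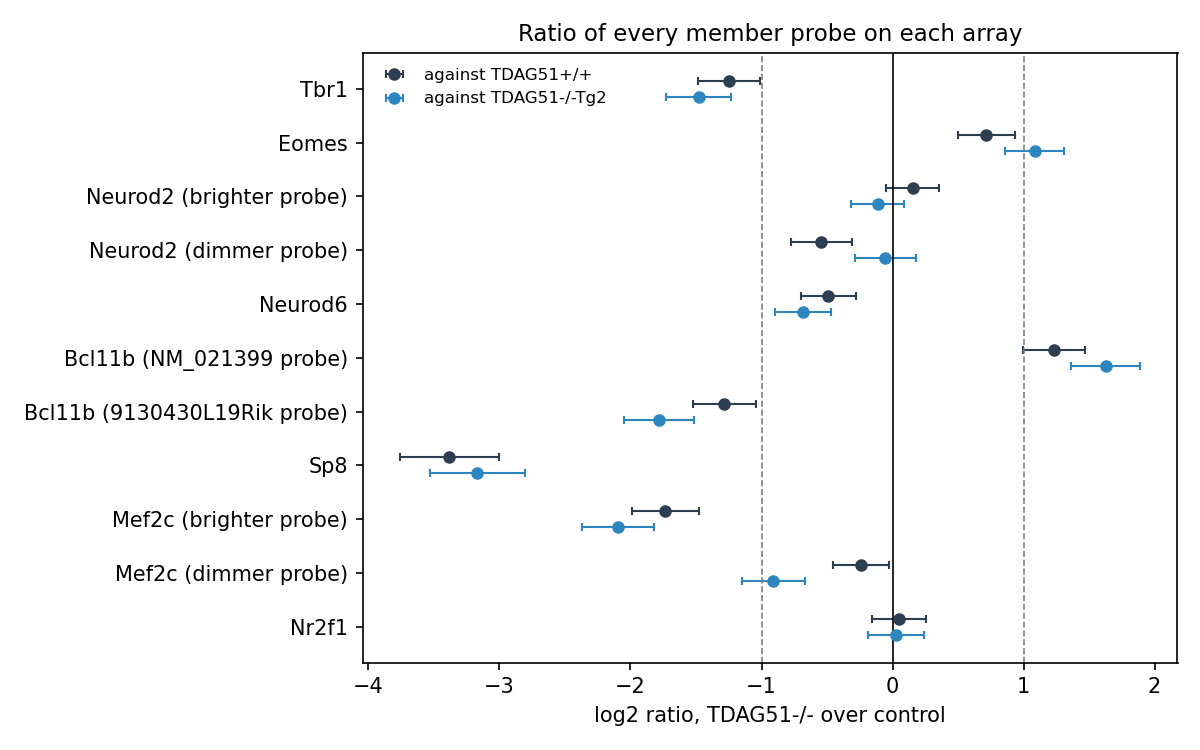
Log2 ratio of TDAG51-/- over control for each member probe and the 9130430L19Rik probe, dark against TDAG51+/+ and blue against TDAG51-/-Tg2. Bars are the scanner's error of the single spot, not the spread between animals, dashed lines mark 2-fold, and Bcl11b stands at 1.23 and 1.63 by one probe and at -1.28 and -1.78 by the other.

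Eomes, also called Tbr2, a T-box factor and relative of Tbr1, went the other way from Tbr1. It read 2157 in TDAG51-/- against 1530 in TDAG51+/+, and 2337 against 1299 in TDAG51-/-Tg2. The log2 ratio was 0.72 (scanner error 0.22), 1.64-fold higher, against TDAG51+/+ and 1.09 (error 0.23), 2.12-fold higher, against TDAG51-/-Tg2. Both TDAG51-/- values lay above both control values, but only the second ratio passed 2-fold, and with no normalization it was 0.84.

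In the adult brain Eomes has 2 well-known sites, and their markers moved apart. Of the 5 genes listed for unipolar brush cells, Lmx1a was not above background. Of the remaining 4, 2 were at least 2-fold higher in both comparisons, where 2.77% of all genes were. Plcb4, a phospholipase, was 2.91-fold and 2.31-fold higher. The summed normalized intensity of the 4 genes was 27517 and 26593 in the TDAG51-/- channels, 12048 in TDAG51+/+ and 11972 in TDAG51-/-Tg2. All 4 are also active in other neurons. Tbx21, a T-box factor of the mitral and tufted cells of the bulb, which also express Eomes and Tbr1, had log2 ratios of -0.48 and -0.50. The part of either cell type in the Eomes value was not tested.

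Neurod2 and Neurod6 are basic helix-loop-helix factors of cortical and hippocampal excitatory neurons, and neither passed 2-fold. Neurod6 read 4532 in TDAG51-/- against 8204 in TDAG51+/+, and 6288 against 13954 in TDAG51-/-Tg2. The log2 ratios were -0.49 (scanner error 0.21) and -0.68 (error 0.21), 1.40-fold and 1.61-fold lower. Both channels of this spot were brighter on the second array, by 0.49 in Cy3 and 0.69 in Cy5 on the log2 scale, so the ratio moved less than either channel. With no normalization the ratio against TDAG51-/-Tg2 was -1.15, past 2-fold.

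The 2 probes of Neurod2 gave no common direction. The brighter one read 14625 against 19241 on the first array and 13385 against 21418 on the second, with normalized log2 ratios of 0.15 and -0.11. Its unnormalized ratios were -0.40 and -0.68, so its sign in the first comparison comes from the intensity-dependent normalization. The dimmer one read 119 against 189 and 132 against 158, with log2 ratios of -0.54 and -0.06. All 4 ratios were within 2-fold.

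Nr2f1, an orphan nuclear receptor also known as COUP-TFI, was the least different member. It read 212 in TDAG51-/- and 214 in TDAG51+/+, then 214 and 242 in TDAG51-/-Tg2. The log2 ratios were 0.05 and 0.03, each smaller than its scanner error of 0.21. The probe was dim and held only 21.7% G and C, and a difference smaller than the scanner error was not detectable with 1 spot.

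The control channels also allow a look across the arrays, at TDAG51-/-Tg2 minus TDAG51+/+, which were not hybridized together. After quantile adjustment of the arrays, Sp8 was 0.23 lower, Mef2c by the probe of NM_025282 was 0.16 lower and Tbr1 was 0.10 lower on the log2 scale in TDAG51-/-Tg2. These lie within the robust SD of 0.399 over 29876 probes, of which 6.79% were at least 2-fold apart. Neurod6 was 0.69 higher and Mef2c by the probe of AK044643 was 0.64 higher. Bcl11b was 0.49 lower by its named probe and 0.44 higher by the 9130430L19Rik probe. No member was 2-fold apart between the controls.

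The relatives of the members by protein family stood mostly within 2-fold. Of 22 listed, 19 were above background. Of these, 1 was at least 2-fold lower in both comparisons, 2 were higher in both and 16 were neither, with medians of 0.09 and -0.04. Over all genes, 1.57% were lower and 2.77% higher in both. The 1 that was lower was Bcl11a. Neurod1, a factor of cerebellar granule cells and of the same family as Neurod2 and Neurod6, read 728 against 147 and 922 against 200, which is 4.91-fold and 4.98-fold higher. Sp5, a relative of Sp8 and a target of Wnt signalling, was 4.88-fold and 4.35-fold higher. Sp8 and Sp5 thus stood on opposite sides of 0, as did Neurod6 and Neurod1. Mef2d had log2 ratios of -0.29 and -0.31 by its brightest probe. Its 3 probes spanned -0.29 to 0.32 against TDAG51+/+ and -2.25 to -0.04 against TDAG51-/-Tg2. Sp1 had 0.37 and 0.06.

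Among the other transcription factors of the pallium, more were called lower than higher. Of 30 detected, 6 were at least 2-fold lower in both comparisons and 1 was higher, where 1.57% and 2.77% of all genes were. The medians were -0.22 and -0.20. Egr3, an activity-induced zinc finger factor, had log2 ratios of -2.05 and -2.40 by its brightest probe, but its other probe gave -0.59 and 0.09. Emx2, which patterns the cortex, had -1.72 and -1.29, with its other probe at 0.03 and -0.55. Pax6, used in forebrain stem cells and in cerebellar granule cells, was 2.42-fold and 3.26-fold higher, with its 3 probes between 0.61 and 1.28 and between 0.72 and 1.71. By the median over probes, Emx2 and Pax6 no longer passed 2-fold in both comparisons. Bhlhe22 had 0.77 and 0.81, and Etv1 0.64 and 1.08.

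Factors of the subpallium, the source of the striatum and of forebrain inhibitory neurons, were called lower more often than higher. Of 26 detected, 10 were at least 2-fold lower in both comparisons and 1 was higher, where 1.57% and 2.77% of all genes were. The medians were -0.87 and -0.80. The 10 became 9 without Foxp1, both when saturated probes were left out and by the median over probes. That median was -0.90 for Foxp1 against TDAG51+/+. Lhx8, a factor of basal forebrain cholinergic neurons, was 13.0-fold and 11-fold lower. Dlx2, which specifies inhibitory neurons, was 3.84-fold and 3.57-fold lower. Rarb, a retinoic acid receptor of the striatum, was 9.13-fold and 4.29-fold lower by its brightest probe, with another probe at -0.03 and -0.71. Ebf1, an early factor of striatal neurons, was 3.75-fold and 3.02-fold higher by its brightest probe, with its other probe at 0.31 and 0.74. Ikzf1 and Zfp503 had ratios of 0.87 and 0.52 in the first comparison and 0.59 and 0.31 in the second.

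Factors of the midbrain, hindbrain and cerebellum included many that were higher. Of 51 detected, 0 were at least 2-fold lower in both comparisons and 19 were higher, where 2.77% of all genes were, with medians of 0.89 and 0.84. Pax3 was 8.78-fold and 9.93-fold higher, and Hoxb5, part of the code for position in the hindbrain, was 7.19-fold and 9.17-fold higher. The lowest in both were Pax5 with -0.93 and -0.45, Hoxc4 with -0.41 and -0.32 and Hoxa4 with -0.17 and -0.48, and for Pax5 and Hoxa4 another probe was above 0 in both.

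**Figure D3:**
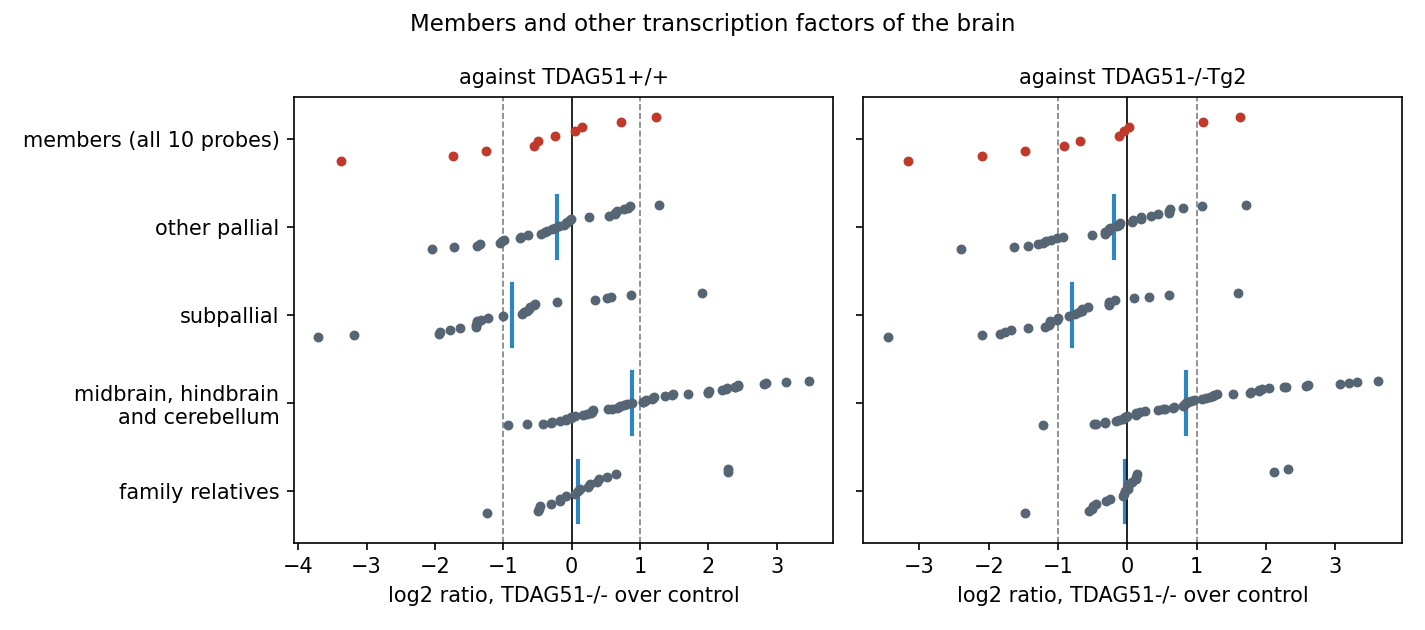
Log2 ratio of TDAG51-/- over control for the 10 member probes (red) and for the brightest probe of each gene in 4 lists of other transcription factors (grey), 1 panel per comparison. Blue bars are list medians and dashed lines mark 2-fold, and the median lies at -0.87 and -0.80 for subpallial factors and at 0.89 and 0.84 for midbrain, hindbrain and cerebellum factors.

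Of 6 detected genes known to be regulated by Tbr1 or by Mef2 factors, 1 was at least 2-fold lower in both comparisons and 0 were higher. The shares over all genes were 1.57% and 2.77%. Grin2b, an NMDA receptor subunit regulated by Tbr1, was 2.79-fold and 2.72-fold lower by its brightest probe, and its 4 probes spanned -1.48 to 0.21 against TDAG51+/+, with a median over probes of -0.85 and -0.84. Reln, a secreted guidance protein made by cortical pioneer neurons and by cerebellar granule cells, had 0.37 and 0.94. Auts2 had -0.27 and -0.60 by its brightest probe, and its other probe, at -1.03 and -1.17, was past 2-fold in both comparisons. Ntng1 had -0.26 and -0.34 by its brightest probe. Its 4 probes spanned -0.26 to 0.22 against TDAG51+/+ and -1.14 to -0.16 against TDAG51-/-Tg2. Among Mef2 targets, Arc had -0.78 and -1.55 and Nr4a1 had -0.46 and -0.40.

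Marker genes of whole brain regions moved alongside these factors. Of 10 cortex and hippocampus markers 3 were at least 2-fold lower in both comparisons and 0 higher, where 1.57% and 2.77% of all genes were. Without Camk2a and Nrgn, whose control spots were saturated, the summed normalized intensity was 34821 and 42135 in TDAG51-/- against 94962 in TDAG51+/+ and 93390 in TDAG51-/-Tg2. Slc17a7, the vesicular glutamate transporter of cortical neurons, had -0.99 and -1.40, while Nrgn, a calmodulin-binding protein, was at least 1.22-fold and 1.44-fold lower. Of 9 detected striatum markers 7 were lower and 0 higher, with sums of 61205 and 57660 against 145949 and 149738. Drd1, a dopamine receptor, was 5.44-fold and 5.34-fold lower, but Drd2 had 0.10 and 0.20. Of 10 cerebellum markers 7 were higher and 0 lower. Cbln1 and Pcp2 were saturated in TDAG51-/-, and without them 5 of 8 were higher, with sums of 206899 and 209923 against 72014 and 68755. Cbln3, a secreted protein of granule cells, was 5.88-fold and 6.07-fold higher. Of 10 hindbrain markers 7 were higher and 0 lower, with Slc6a5, the glycine transporter, 7.80-fold and 9.17-fold higher and Glra1, a glycine receptor subunit, 5.38-fold and 5.22-fold higher.

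No gene of the lists for neurons in general, myelin, astrocytes, microglia or housekeeping was called 2-fold apart in both comparisons, but some could not be measured. Mag was saturated in both channels of both arrays, and Cnp, Eno2, Slc1a3 and Actb in both control channels. Without these 5, the medians were -0.09 and -0.13 for 6 neuronal genes, -0.27 and 0.32 for 4 myelin genes, -0.05 and 0.03 for 4 astrocyte genes, -0.64 and -0.65 for 5 microglia genes and -0.77 and -0.60 for 3 housekeeping genes. Sp8, Mef2c and Tbr1 were lower in samples where 7 of 9 striatum, 3 of 10 cortex and 3 of 6 bulb markers were lower. In these samples 7 of 10 cerebellum and 7 of 10 hindbrain markers were higher. Over all genes, 1.57% were lower and 2.77% higher in both comparisons. Of the other members, Bcl11b was higher in both by its named probe and lower in both by the 9130430L19Rik probe. Eomes was higher and passed 2-fold only against TDAG51-/-Tg2, and Neurod2, Neurod6 and Nr2f1 stayed within 2-fold. How much of each region the samples held is not stated, and the part of regional makeup in the member values was not tested.

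The sequences before the genes' starts were searched for motifs that factors of the members' own families bind, because Sp8, Mef2c and Tbr1 were all lower. RefSeq promoter windows of GRCm38.p6, from 250 bases before to 50 after each start, exist as 13 windows for the members and 32851 in all. On both strands, the basic helix-loop-helix motif CANNTG lay in 8 of the 13 windows, of 6 members, against 72.3% of all windows. The Sp motif GGGCGG lay in 5, of 5 members, against 35.7%, and the nuclear receptor motif AGGTCA in 3, of Mef2c and Sp8, against 16.3%. The T-box motif GGTGTGA and the MEF2 motif, CTA and TAG with 4 bases between, lay in 0 of the 13, against 3.98% and 3.69%. The letters searched do not overlap each other's definitions, and a match is a description of the sequence, not a bound site. The 250 bases before the start are shown for Tbr1 and for the 1 of 3 Sp8 starts with the most matches, on the plus strand, with each match of these motifs in capitals.
Tbr1, chr2:61804203-61804452: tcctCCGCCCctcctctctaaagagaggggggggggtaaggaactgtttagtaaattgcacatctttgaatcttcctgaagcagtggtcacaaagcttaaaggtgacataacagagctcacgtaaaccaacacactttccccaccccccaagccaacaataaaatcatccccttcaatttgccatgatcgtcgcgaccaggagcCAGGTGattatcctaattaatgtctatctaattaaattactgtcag
Sp8, chr12:118846983-118847232: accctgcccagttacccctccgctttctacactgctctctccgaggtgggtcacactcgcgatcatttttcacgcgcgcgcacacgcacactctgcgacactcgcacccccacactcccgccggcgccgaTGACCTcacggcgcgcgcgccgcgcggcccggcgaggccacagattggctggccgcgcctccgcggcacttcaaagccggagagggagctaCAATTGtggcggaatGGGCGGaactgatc
Tbr1 thus carries 1 E-box and 1 GC box before its start, and the Sp8 window 1 of each and 1 nuclear receptor motif, all common among promoters.

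**Figure D4:**
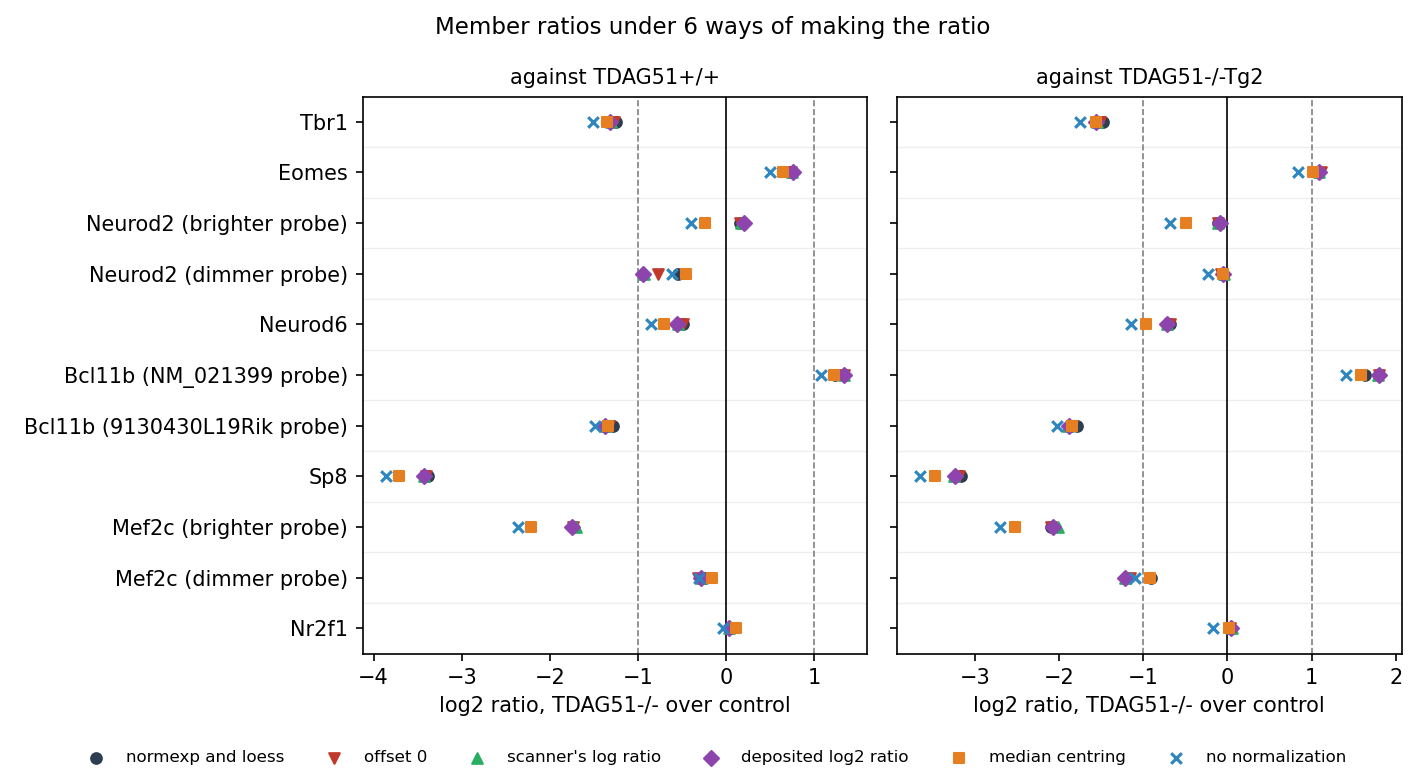
Log2 ratio of TDAG51-/- over control for each member probe and the 9130430L19Rik probe under 6 ways of making the ratio, 1 panel per comparison, with dashed lines at 2-fold. Sp8 stays between -3.87 and -3.38 against TDAG51+/+, while the brighter Neurod2 probe and Nr2f1 lie on both sides of 0.

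Across 6 ways of making the ratio, Sp8 ranged from -3.87 to -3.38 against TDAG51+/+ and from -3.65 to -3.17 against TDAG51-/-Tg2. Tbr1 ranged from -1.51 to -1.25 and from -1.75 to -1.48, and Mef2c by the probe of NM_025282 from -2.36 to -1.70 and from -2.70 to -2.01. Bcl11b by its named probe ranged from 1.07 to 1.34 and from 1.41 to 1.80, and by the 9130430L19Rik probe from -1.49 to -1.28 and from -2.03 to -1.78. These 5 probes kept their side of 2-fold in every setting tried for the ratio. Of the others, Nr2f1 crossed 0 in both comparisons and the brighter Neurod2 probe against TDAG51+/+. Against TDAG51-/-Tg2, Eomes ranged from 0.84 to 1.11, Neurod6 from -1.15 to -0.68 and Mef2c by the probe of AK044643 from -1.21 to -0.91, each across the 2-fold line.

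The targeted gene, Phlda1, was read at chr10:110970234-110970293 of mm7. It read 350 in TDAG51-/- and 7283 in TDAG51+/+, 17.3-fold lower. On the second array it read 44.1 in TDAG51-/- and 50.5 in TDAG51-/-Tg2, neither well above background, so no fold is given. The TDAG51-/- value was thus above background on one array and not on the other. Whether the transgene holds the probed stretch is not stated, so this probe does not check the TDAG51-/-Tg2 label. Both arrays were on 1 slide, with median intensities of 336 to 385 over backgrounds of 39 to 44.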

How the data were processed

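Total RNA of whole brain was hybridized to 2 Agilent two-colour arrays. The authors deposited the output of Agilent Feature Extraction 9.5.3.1: mean and background intensity of each spot, the software's log10 ratio of Cy5 over Cy3, its error (a score here), a p-value per spot that was not used, and flags. The authors also deposited a log2 ratio whose normalization is not stated, with medians of -0.011 and -0.0097. Set against the scanner's ratio it is Cy3 over Cy5.

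In limma 3.58.1 (R 4.3.3), normexp (offset 50) corrected the background and loess within the array removed intensity-dependent dye bias, without the 375 and 300 outlier spots and control spots. Spots of a probe were averaged, which varied with a median SD of 0.063 and 0.065 over 245 probes with at least 5 spots. Ratios were turned as TDAG51-/- over control. Probes marked well above background in at least 1 channel were counted at 2-fold, and a gene was taken as its brightest probe. A saturated control gives a lower bound. Marker sums and medians without saturated genes were added after the data were seen. Channels were compared between arrays after Aquantile scaling. Probe names were updated through the RefSeq table of GRCm38.p6 (22951 probes by accession, 6659 by symbol, 3109 by synonym, 8455 unmatched). Named were all member probes, for each transcription factor list the top 3 genes in either direction, ranked by the lesser of their ratios with 1 sign in both, and the first 2 genes of marker lists that moved. Some genes that this rule names are not reported here. Th, Tbx21 and Plcb4 were chosen after their values were seen. Members and lists were chosen with earlier results of these data known. The processing was tested on simulated data with a constant dye factor, so the removal of intensity-dependent dye bias was not tested. Tables and plots used pandas 2.3.3, numpy 2.4.6 and matplotlib 3.10.9 under Python 3.11.15, with tables read by the R package data.table (1.17.8). The number of arrays limits the precision.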

Additional observations from a re-analysis of the deposited data

How the results depend on the processing

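The median log2 ratio over the 8 members depended on the processing, and the counts of the gene lists depended on the threshold. Against TDAG51+/+ and TDAG51-/-Tg2 it was -0.47 and -0.73 with median centring in place of loess, -0.63 and -0.91 with no normalization, and -0.87 and -1.08 with the 9130430L19Rik probe assigned to Bcl11b. Against TDAG51+/+ it was -0.34 with the median over the probes of a gene and turned to 0.049 without saturated probes, which leaves out the Mef2c probe of NM_025282. At a 3-fold threshold, 2 member probes passed against TDAG51+/+, those of Sp8 and of Mef2c (NM_025282), both lower. Against TDAG51-/-Tg2, 3 passed, the same 2 and the named Bcl11b probe, which was higher. At 3-fold, 4 subpallial and 1 other pallial factors were lower in both comparisons, and 13 midbrain, hindbrain and cerebellum factors were higher. At a 1.5-fold threshold these counts were 16, 7 and 29. The shares of all probes and genes past 3-fold and 1.5-fold were not counted. The medians of all probes before normalization were -0.19 and -0.25. No single member probe that passed 2-fold changed its direction. No paired analysis was possible because each comparison has 1 array, and no replicate could be left out. With 1 spot per probe and no dye swap, dye bias and the spread between animals were not measured.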
